A study of Mus musculus with 12 samples.

Results

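Hepatocytes lacking Mettl3 were compared with Control hepatocytes before actinomycin D was added. The comparison uses 4 of the 12 libraries of the series, namely the 2 Control and the 2 Mettl3 cKO libraries labelled 0 h, and runs across all expressed genes. The other 8 libraries came from hepatocytes kept in 5 µM actinomycin D, a blocker of transcription, for 2 or 6 h. Mettl3 cKO mice were C57BL/6J animals whose Mettl3 alleles were both floxed and that carried 1 copy of a Cre transgene under the albumin promoter, inserted at the H11 locus. Control mice were littermates, labelled WT. The albumin promoter drives Cre in hepatocytes and in earlier cells that express albumin. Deletion in the other liver cells was not measured here. In both groups the liver was perfused with collagenase, hepatocytes were enriched by a slow spin, and the plated cells were cultured on collagen I for 16 h. Neither the age nor the sex of these mice is stated. Whether the 2 libraries of a group stem from different mice or different cultures is not said. The p-values below therefore rest on the spread between 2 libraries a group, and that spread may be technical. The spread was estimated over all 12 libraries in 6 groups, including those kept in actinomycin D. Poly(A) RNA was sequenced, and the deposited values are read counts per gene.

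METTL3 is the catalytic subunit of the complex that writes N6-methyladenosine (m6A) into mRNA. It works as a dimer with METTL14, and WTAP, RBM15, VIRMA, ZC3H13 and CBLL1 position the pair. YTH-domain proteins read the mark, and YTHDF proteins are best known for shortening the life of marked mRNAs. Hepatocytes make most plasma proteins and carry out urea synthesis, glucose production, bile acid synthesis and the breakdown of foreign compounds, under transcription factors such as HNF4A and C/EBP alpha. Plated hepatocytes lose part of this programme in culture, so the levels below are those of cells after overnight culture and not of liver tissue.

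The Control libraries held 16952084 and 17424085 reads assigned to genes, and the Mettl3 cKO libraries 20914516 and 20103395. Between 19302 and 19994 genes had a read. The 10 most abundant genes took 10.6% to 11.2% of the reads. All 4 libraries had reads of Y-linked genes (Ddx3y 2440 to 3210 reads) and at most 6 of Xist. Levels are given as CPM, a gene’s counts scaled to the total of its library, and differences as log2 of Mettl3 cKO over Control from edgeR with TMM scaling, where 1 is a 2-fold difference. A gene was called at an adjusted p under 0.05 (edgeR quasi-likelihood test, Benjamini-Hochberg).

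Of 14488 genes tested, 4286 (29.6%) were higher and 3691 (25.5%) lower in Mettl3 cKO. Most of these differences were small. The median absolute log2 difference over all genes was 0.36, and 90% of genes lay between -0.98 and 1.38. With a difference of more than 2-fold required as well, 1223 genes (8.44%) were higher and 607 (4.19%) lower. With libraries scaled to the ribosomal protein mRNAs instead, which moved the median of all genes to 0.10, 4548 genes were higher and 2505 lower, so that 64.5% of calls were higher in place of 53.7%. The shares by TMM are the background against which the gene groups below are read. The levels of the 2 groups did not overlap in 10940 genes (75.5%), so 2 libraries a group that stand apart are the usual case here. Among protein-coding genes, lower calls of any size were most frequent in abundant mRNAs, and small decreases are harder to call in genes of few reads. Large decreases were not concentrated there. Genes lower by more than 2-fold had a median of 5.64 CPM and those higher by more than 2-fold 4.89 CPM, against 26.0 CPM over all. In the fifth of genes with the highest mean CPM, 39.9% were lower and 30.9% higher, against 10.6% lower and 27.1% higher in the fifth with the lowest.

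**Figure D1:**
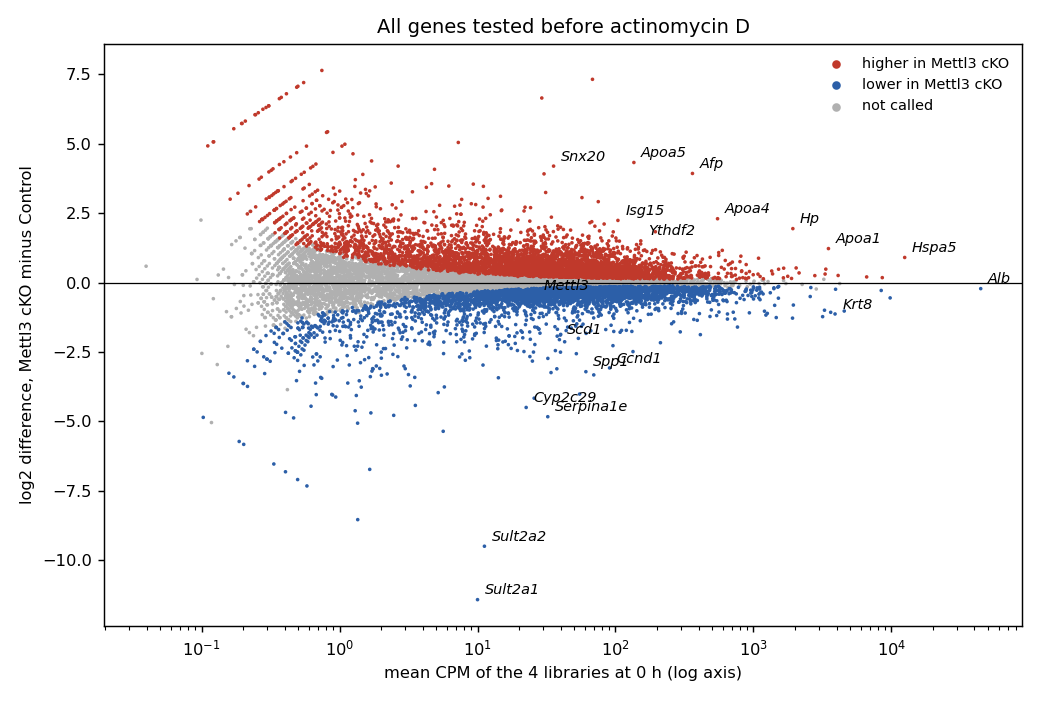
Each point is 1 of the 14488 genes tested, with its mean CPM over the 4 libraries at 0 h on a log axis and its log2 difference, Mettl3 cKO minus Control; red points were called higher, blue points lower and grey points neither. Apoa5, Snx20 and Afp lie above 3.9 and Sult2a1 and Sult2a2 below -9, while Alb, the most abundant mRNA, lies near 0.

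Mettl3 itself was lower in the libraries labelled Mettl3 cKO but far from absent. It had 33.4 and 28.5 CPM in Control and 22.6 and 23.2 CPM in Mettl3 cKO (log2 -0.47, SE 0.10, adjusted p = 0.00033), and its libraries did not overlap between the groups. The counts cover all exons of the gene, including those outside the floxed part. Its partner Mettl14 had a log2 difference of -0.001 (SE 0.098, adjusted p = 0.994). Of the 7 members of the m6A writer complex tested, 4 were higher and 2 lower. Rbm15, an RNA-binding subunit that recruits the writer, had 50.1 and 48.9 CPM in Control against 88.3 and 89.8 CPM (log2 0.81, SE 0.073, adjusted p = 1.07e-09). Wtap, the scaffold of the complex, rose from 72.0 and 73.7 to 110 and 111 CPM (log2 0.56). Cbll1 rose (log2 0.43), and Zc3h13 was called higher at log2 0.22. Rbm15b, the close relative of Rbm15, was lower (log2 -0.42, adjusted p = 2.41e-05). The largest subunit, Virma, stands in the file under its older symbol 1110037F02Rik, was looked up after values were seen, and had 80.0 and 81.7 CPM in Control and 125 and 126 CPM in Mettl3 cKO (log2 0.59, SE 0.060, adjusted p = 6.37e-09). The call of Zc3h13 ended without Control replicate 1 (adjusted p = 0.162) or Mettl3 cKO replicate 1 (0.198).

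Among the 13 readers and erasers of m6A, 5 were higher and 2 lower. The rise was largest in 2 YTHDF readers. Ythdf2, which recruits the machinery that removes poly(A) tails, had 78.7 and 77.4 CPM in Control and 227 and 227 CPM in Mettl3 cKO (log2 1.501, SE 0.060, adjusted p = 2.47e-16). Ythdf1 rose from 98.7 and 95.2 to 218 and 226 CPM (log2 1.16, SE 0.057). The libraries of a group lay close together for both genes and the groups did not overlap. The nuclear reader Ythdc1 (log2 0.58) and Ythdf3 (log2 0.47) also rose. Fmr1, which binds many marked mRNAs, was lower (103 and 108 against 69.5 and 66.4 CPM, log2 -0.67), and so was Hnrnpc (log2 -0.24), whose call ended with ribosomal protein scaling (log2 -0.17, adjusted p = 0.114). The erasers Fto (log2 0.01, adjusted p = 0.943) and Alkbh5 (log2 0.15, adjusted p = 0.0461) had small differences. The call of Alkbh5 ended without Control replicate 1 (adjusted p = 0.101), Control replicate 2 (0.148) or Mettl3 cKO replicate 2 (0.234).

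Markers fixed for each cell type were read next, since hepatocyte preparations carry other liver cells. The summed level of 15 hepatocyte markers was 54613 and 56122 CPM in Control and 54632 and 51289 CPM in Mettl3 cKO, so both groups were hepatocyte preparations by RNA. Of those 15 markers, 9 were lower and 5 higher, or 3 higher without Control replicate 1. The Kupffer cell and macrophage markers differed most among the other cells. Of 13 tested, 12 were higher and none lower, with a median log2 of 1.13 against 0.028 over all genes. Their summed level was 218 and 219 CPM in Control and 519 and 479 CPM in Mettl3 cKO. Cd68, a lysosomal glycoprotein of macrophages, had 45.8 and 45.7 CPM in Control and 147 and 120 CPM in Mettl3 cKO (log2 1.502, SE 0.11, adjusted p = 3.05e-11). Clec4f, a lectin of Kupffer cells, had 10.2 and 9.87 against 22.1 and 23.5 CPM (log2 1.14), and the scavenger receptor Marco 50.2 and 50.2 against 119 and 107 CPM (log2 1.13). Cd163 had no read in any of the 4 libraries. In bulk RNA, fewer cells of a type and less RNA per cell cannot be told apart.

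Endothelial markers summed to 312 and 325 CPM in Control and 423 and 388 CPM in Mettl3 cKO, with 5 of 12 higher and none lower, or 3 higher with replicate 1 of either group left out. Stellate cell and fibroblast markers summed to 388 and 366 against 533 and 532 CPM, with 5 of 14 higher and none lower, or 1 lower with Mettl3 cKO replicate 1 or 2 left out. Among these, Acta2, the smooth muscle actin of activated stellate cells, had 42.4 and 41.9 CPM in Control and 104 and 100 CPM in Mettl3 cKO (log2 1.24, SE 0.068, adjusted p = 9.25e-14). The collagens Col1a1 (log2 -0.28, adjusted p = 0.0604) and Col1a2 (log2 0.20, adjusted p = 0.102) were not called, and Pdgfrb was not either (log2 0.22, adjusted p = 0.162). Cholangiocyte markers went the other way and summed to 204 and 213 CPM in Control and 94.9 and 86.4 CPM in Mettl3 cKO, with 3 of 9 lower and 1 higher. Of 8 erythroid markers 2 were abundant enough to test, and of 12 lymphocyte and neutrophil markers 3, of which Ptprc was higher (log2 0.68).

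**Figure D2:**
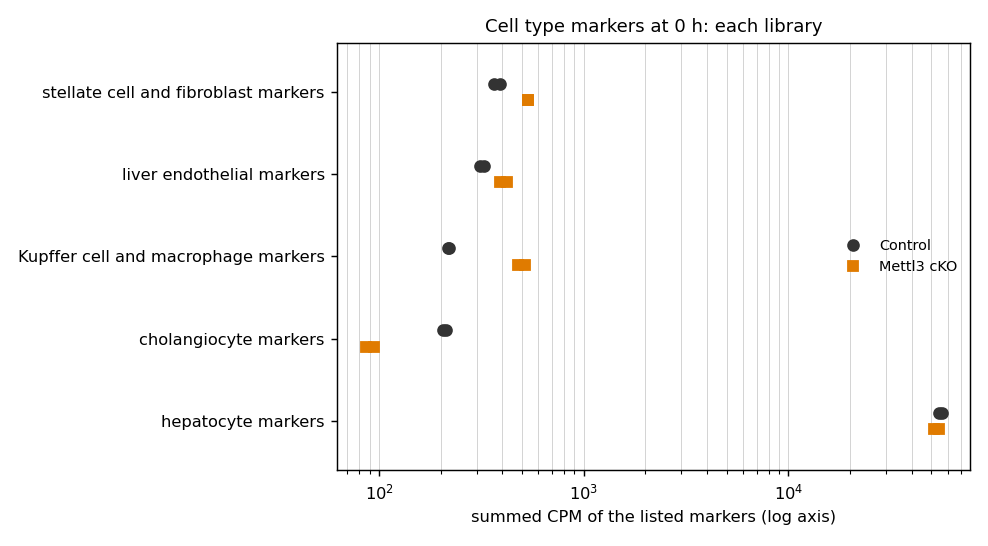
Each symbol is 1 library at 0 h, Control as black circles and Mettl3 cKO as orange squares, with the summed CPM of all listed markers of a cell type on a log axis. The Kupffer cell and macrophage sum lies near 219 CPM in both Control libraries and at 479 and 519 CPM in Mettl3 cKO. The cholangiocyte sum is the only sum that lies lower in both Mettl3 cKO libraries by more than 2-fold. The hepatocyte sums nearly coincide, but Alb, at 40418 to 47844 CPM, makes up most of each.

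The 12 largest decreases among named genes of at least 10 CPM were those of Sult2a1, Sult2a2, Serpina1e, Cyp2c29, Akr1c18, Cyp2a12, Uroc1, Fbln2, Uox, Spp1, Crct1 and Ccnd1. Serpina1e, a member of the alpha-1-antitrypsin family, had 63.0 and 61.8 CPM in Control and 2.63 and 1.84 CPM in Mettl3 cKO (log2 -4.83, SE 0.13, adjusted p = 8.4e-20). Cyp2c29, a cytochrome P450 of drug and retinoid metabolism, had 39.4 and 46.8 against 1.77 and 2.14 CPM (log2 -4.50, SE 0.13). Akr1c18, which inactivates progesterone, had 47.7 and 49.7 against 2.73 and 2.84 CPM (log2 -4.17, SE 0.12). In these genes every Mettl3 cKO library lay more than 10-fold below every Control library.

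Uox, the urate oxidase that mice use to clear uric acid, had 57.4 and 65.7 CPM in Control and 7.46 and 5.87 CPM in Mettl3 cKO (log2 -3.24). Uroc1, urocanate hydratase of histidine breakdown, was lower by a similar amount (log2 -3.43). The extracellular matrix protein Fbln2 had 131 and 122 against 12.9 and 12.9 CPM (log2 -3.33). Spp1, which encodes osteopontin and is strong in bile duct cells, had 106 and 114 against 12.8 and 11.6 CPM (log2 -3.21). Ccnd1, the G1 cyclin D1, stood at 162 and 161 CPM in Control and 19.8 and 19.6 CPM in Mettl3 cKO (log2 -3.08, SE 0.065, adjusted p = 5.98e-22), the tightest replicates among these 12 genes in Control. No alternative processing ended any of these calls.

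The 12 largest increases by the same rule were those of Apoa5, Snx20, Afp, Sema7a, Col20a1, Igfals, Slc9a2, Serpina10, Fat2, Iigp1, Ccl6 and Anxa8. Apoa5, a plasma apolipoprotein that promotes triglyceride clearance, rose from 13.4 and 11.8 CPM to 256 and 263 CPM (log2 4.33, SE 0.078, adjusted p = 2.28e-23). Afp, alpha-fetoprotein, the albumin-like plasma protein of fetal liver, rose from 44.7 and 41.95 to 664 and 695 CPM (log2 3.93, SE 0.059, adjusted p = 6.68e-25). Both had over 200 reads in each Control library, and every Mettl3 cKO library lay far above them. Igfals, the subunit that holds IGF in plasma complexes, rose from 7.26 and 4.36 to 53.7 and 59.4 CPM (log2 3.25). Serpina10, the inhibitor that acts with protein Z on coagulation factor X, rose from 12.03 and 11.8 to 106 and 98.8 CPM (log2 3.06).

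Several of the other increases were in genes with few reads in Control. The sorting nexin Snx20 had 4.48 and 2.70 CPM in Control and 66.2 and 69.0 CPM in Mettl3 cKO (log2 4.196, SE 0.13). The membrane-anchored semaphorin Sema7a rose from 4.13 and 3.21 to 55.1 and 58.9 CPM (log2 3.92), and the atypical cadherin Fat2 from 2.12 and 2.93 to 22.3 and 20.4 CPM (log2 3.03). In each the Control libraries lay under 5 CPM and the Mettl3 cKO libraries above 20. Iigp1, an interferon-induced GTPase, rose from 17.1 and 17.2 to 129 and 137 CPM (log2 2.91). The chemokine Ccl6, which macrophages make, rose from 3.01 and 2.64 to 21.1 and 17.1 CPM (log2 2.72). Ccl6 moved in the same libraries as the macrophage markers, and their part in it was not tested. A pair of pseudogenes listed as predicted genes, which the rule for named genes leaves out and which were singled out after values were seen, had still larger differences. Gm8730 had 18 and 10 reads in Control and 2650 and 2899 in Mettl3 cKO, and Gm9625 10 and 9 against 1065 and 1305. Reads of such copies can come from near-identical parent genes.

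**Figure D3:**
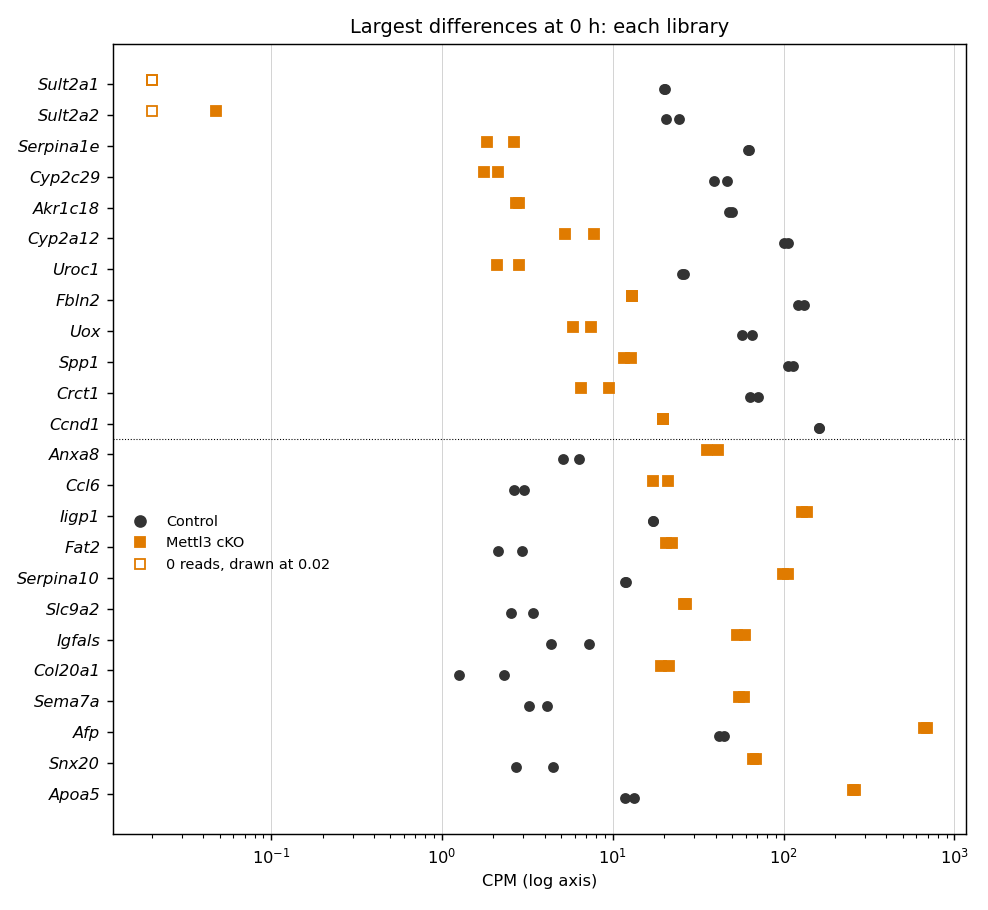
CPM of each library on a log axis for the 12 largest decreases (top) and the 12 largest increases (bottom) among named genes of at least 10 CPM, with Control as black circles and Mettl3 cKO as orange squares; open squares mark libraries with 0 reads. In all 24 genes the 2 groups stand apart, which their choice as the largest differences makes likely and which holds in 75.5% of all genes. Afp and Apoa5 reach 664 to 695 and 256 to 263 CPM in Mettl3 cKO.

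The Sult2a sulfotransferases were the only genes with at most 3 reads in both libraries of a group and at least 100 in both of the other. Sult2a1, which sulfates bile acids and hydroxysteroids, had 337 and 351 reads in Control and 0 and 0 in Mettl3 cKO. Against a floor of 3 reads per library this is at least 137-fold lower. Sult2a2 had 346 and 426 reads in Control and 1 and 0 in Mettl3 cKO, which gives a ratio of 921 (exact 95% interval 165 to 36430, which covers counting error only). Both lie in a cluster on chromosome 7 of mm10, from 13623967 to 14446769, that was looked at as a whole after these values were seen. Its 4 tested members were all lower: Sult2a5 had 53 and 60 reads against 0 and 1, and Sult2a8 49 and 56 against 6 and 6 (log2 -3.39, adjusted p = 2.31e-08). The 5 tested genes on each side differed less, and in both directions. Before the cluster, Ube2m was lower (log2 -0.38, adjusted p = 0.000188), and after it Sepw1 was lower (log2 -0.43, adjusted p = 0.000365) and Ehd2 higher (log2 0.20, adjusted p = 0.0456). Lig1, a DNA ligase before the cluster, had 1393 and 1323 reads against 1805 and 1644 (log2 0.05, adjusted p = 0.537), and Pla2g4c, between Lig1 and the cluster, 25 and 22 against 48 and 52 (log2 0.79, adjusted p = 0.024). The copies of this family are alike in sequence, and how reads were split between them cannot be seen in the counts.

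Over all sulfotransferases and their cofactor enzymes, 7 of 12 tested were lower, all by more than 2-fold, and 3 were higher. Sult1a1, which sulfates phenols, fell from 23.1 and 26.7 to 7.89 and 8.21 CPM (log2 -1.67, SE 0.12, adjusted p = 9.92e-12). The enzymes that make the sulfate donor rose: Papss1 had 36.3 and 35.8 CPM in Control and 61.5 and 66.3 CPM in Mettl3 cKO (log2 0.79), and Papss2 47.0 and 47.0 against 65.9 and 62.6 CPM (log2 0.41).

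Many enzymes of foreign compound metabolism were lower. Of 52 cytochromes P450 tested, 31 were lower and 8 higher, and 26 were lower by more than 2-fold, where 4.19% of all genes were. The median log2 of the list was -1.16, against 0.028 over all genes. Cyp2a12 fell from 100.6 and 106 to 7.79 and 5.27 CPM (log2 -4.02), Cyp2c70, which makes muricholic acids in mice, from 87.4 and 89.9 to 15.8 and 15.0 CPM (log2 -2.56), and Cyp2d26 from 203 and 200 to 58.4 and 64.1 CPM (log2 -1.76). The increases were Cyp1a1, a target of the aryl hydrocarbon receptor (5.01 and 5.22 against 13.6 and 13.3 CPM, log2 1.35), Cyp4a14, an omega-hydroxylase of fatty acids (log2 0.65), and 6 others. Cyp1a2, which shares the receptor with Cyp1a1, was lower (10.7 and 11.3 against 5.403 and 4.18 CPM, log2 -1.24). With genes restricted to a mean of at least 100 reads, 20 of 31 P450 genes were lower. Without Control replicate 1, or without Mettl3 cKO replicate 1, 4 P450 genes were higher in place of 8.

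Of 35 glutathione and glucuronosyl transferases, 21 were lower and 6 higher. Gsta1 fell from 176 and 190 to 71.8 and 67.3 CPM (log2 -1.44), Gsta2 from 20.9 and 25.3 to 5.07 and 4.97 CPM (log2 -2.24) and Ugt3a2 from 34.04 and 31.5 to 6.31 and 6.02 CPM (log2 -2.45). The close copies Gsta1 and Gsta2 may share reads. Ugt2b1 (log2 0.89) and the microsomal Mgst3 (log2 1.04) went the other way.

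The Cyp2c genes stand side by side on chromosome 19 of mm10, from 39007019 to 40187333, and this cluster was examined as a whole after values were seen. Of its 10 tested members 8 were lower, 7 by more than 2-fold, and none higher. Cyp2c29 (668 and 815 against 37 and 43 reads) and Cyp2c50 (78 and 86 against 3 and 4 reads, log2 -4.79) fell furthest. Cyp2c69 fell from 161 and 174 to 13 and 13 reads (log2 -3.97), its neighbour Cyp2c40 from 147 and 160 to 68 and 62 reads (log2 -1.53). Cyp2c68, between them and Cyp2c29, fell least of the 8 (78.7 and 85.8 against 69.8 and 76.9 CPM, log2 -0.21, adjusted p = 0.00928). Its unscaled reads were not lower (1334 and 1495 against 1460 and 1546), so this small decrease depends on scaling. The members of the cluster thus differed in size of decrease.

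Promoters were read for the letters CAAAGTCCA, which HNF4A binds, on both strands of the 300 bases around the start (RefSeq, GRCm38.p6). The letters were in 0.555% of all promoters and 0.670% of those of tested genes. They were in 10 of 400 promoters (2.5%) of genes lower by more than 2-fold, 6 of 870 (0.690%) of genes higher by more than 2-fold, 17 of 2786 (0.610%) of all lower genes and 18 of 3251 (0.554%) of all higher genes. Among the 10 are Cyp2c70, Cyp2c69, Cyp2c40, Cyp3a16, Cyp3a41a and Hsd3b3, so 6 of them encode P450 enzymes or a steroid dehydrogenase. The 10 are not independent, since the Cyp2c genes share a cluster and the Cyp3a genes are related and close on chromosome 5. Some had few reads: Cyp3a41a 10 and 13 in Control against 0 and 0, Pdzk1 9 and 19 against 4 and 7, and Trpt1 17 and 20 against 6 and 11. These last were not called at 2 h, while the others were. Stretches of Cyp2c70, Cyp2c69 and Cyp2c40 are printed here with the letters in capitals, 5′ to 3′ on the strand of the gene. Cyp8b1, which holds the letters and was not called, is printed with them. The promoter of Cyp2c70 is on chromosome 19 from 40187316 to 40187375 on the minus strand, that of Cyp2c69 from 39886810 to 39886869 and that of Cyp2c40 from 39812825 to 39812884, both minus, and that of Cyp8b1 on chromosome 9 from 121916338 to 121916397, minus.
Cyp2c70: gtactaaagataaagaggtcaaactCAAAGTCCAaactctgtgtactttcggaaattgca
Cyp2c69: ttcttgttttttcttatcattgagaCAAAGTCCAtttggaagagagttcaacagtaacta
Cyp2c40: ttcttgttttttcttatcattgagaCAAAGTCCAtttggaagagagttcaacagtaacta
Cyp8b1: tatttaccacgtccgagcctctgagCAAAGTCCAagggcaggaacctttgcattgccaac

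The first capital lay 64 bases before the RefSeq start in Cyp2c70, 75 in Cyp2c69, 45 in Cyp2c40 and 67 in Cyp8b1. These distances depend on the start taken. The Gencode starts of Cyp2c69 and Cyp2c40, 39886799 and 39812814, lie equally far from their stretches. The stretches of Cyp2c69 and Cyp2c40 are the same in all 60 bases, and the 2 genes differ in their log2 difference (-3.97 and -1.53) and may share reads. Cyp8b1, the sterol 12-alpha-hydroxylase that sets the cholic acid share of bile, had 8 and 17 reads in Control and 23 and 27 in Mettl3 cKO (log2 0.70, SE 0.44, adjusted p = 0.184), so it was close to silent in both groups. A TATA box (TATAAA) was in 80 of 400 promoters of genes lower by more than 2-fold, 11.3% of those higher by more than 2-fold and 9.62% of those of all tested genes. AP-1 letters (TGANTCA) were in 11.6% of promoters of genes higher and 10.2% of those lower by more than 2-fold, against 6.99% of all tested. The letters for C/EBP (TTGCGCAA), CRE (TGACGTCA) and the antioxidant response (TGACNNNGC) were in 0.250%, 2.25% and 16.8% of promoters lower by more than 2-fold and 0.345%, 3.33% and 17.7% of those higher, against 0.321%, 3.47% and 17.1% of all tested. For the ISRE and p53 motifs the shares were 3.00% and 0.5% of promoters lower and 4.94% and 0.920% of those higher by more than 2-fold, against 3.77% and 0.443% of all tested.

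Of 45 genes of amino acid breakdown tested, 31 were lower (68.9%, against 25.5% of all genes) and 5 higher. By more than 2-fold, 19 were lower (42.2%, against 4.19% of all genes). Gnmt, which disposes of excess methyl groups from S-adenosylmethionine, fell from 65.4 and 58.1 to 12.4 and 10.8 CPM (log2 -2.45, SE 0.094, adjusted p = 9.53e-17). Mat1a, the liver enzyme that makes S-adenosylmethionine, the methyl donor of METTL3, fell from 175 and 190 to 57.1 and 57.0 CPM (log2 -1.72). Cdo1, which oxidises cysteine, fell from 41.1 and 41.4 to 7.46 and 5.87 CPM (log2 -2.67). Bcat2, which transaminates branched-chain amino acids, rose from 6.19 and 5.91 to 16.6 and 16.96 CPM (log2 1.43), and Ido2, of tryptophan breakdown, from 16 and 8 reads to 177 and 144 (log2 3.43).

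In the urea cycle list, 10 of 16 genes were lower (62.5%, against 25.5% of all genes) and 1 higher. Otc, ornithine transcarbamylase, fell from 29.6 and 31.8 to 7.46 and 6.32 CPM (log2 -2.19, SE 0.11, adjusted p = 3.47e-14). Ass1 fell from 194 and 187 to 81.6 and 78.9 CPM (log2 -1.29), and Cps1, which makes carbamoyl phosphate, from 102 and 114 to 48.7 and 50.2 CPM (log2 -1.17). The exception was Nags, the enzyme that makes the activator of CPS1, with 17.3 and 16.7 CPM in Control and 43.7 and 43.2 CPM in Mettl3 cKO (log2 1.31).

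Of 28 genes of glucose production and glycogen, 15 were lower and 7 higher. Khk, which phosphorylates fructose, fell from 59.7 and 55.3 to 16.9 and 19.9 CPM (log2 -1.68), and Gckr, the regulator of glucokinase, from 35.9 and 35.8 to 13.01 and 16.4 CPM (log2 -1.33). Fbp1, of gluconeogenesis, fell as well (log2 -1.05). Foxo1, a transcription factor that insulin holds out of the nucleus, and Igfbp1, a well known target of it, rose (log2 1.00 and 0.77).

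**Figure D4:**
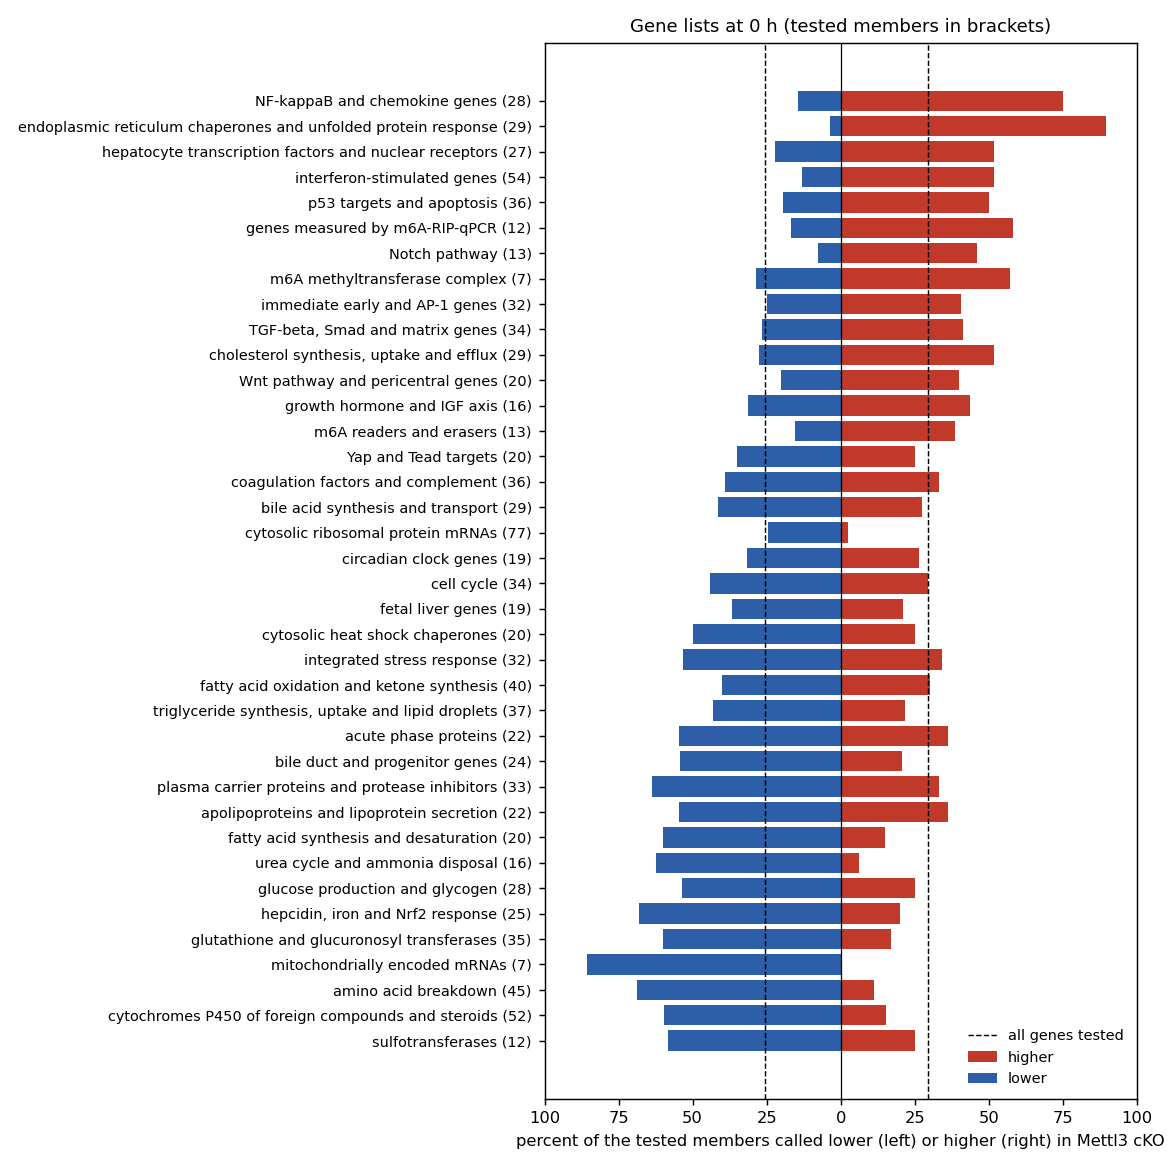
For each gene list with at least 7 tested members, the bar to the right gives the percent of members called higher and the bar to the left the percent called lower in Mettl3 cKO at 0 h, ordered by the median log2 of the list; dashed lines mark the shares over all genes tested (29.6% and 25.5%). Endoplasmic reticulum chaperones (26 of 29 higher) and NF-kappaB and chemokine genes (21 of 28) stand at the top, and P450 enzymes (31 of 52 lower) and sulfotransferases (7 of 12) at the bottom.

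The transcription factors of the hepatocyte were, as a list, called higher more often than lower. Of 27 tested, 14 were higher (51.9%, against 29.6% of all genes) and 6 lower (22.2%, against 25.5%). The list pools factors of unlike function, and whether the enzymes above followed any of them was not tested. Hnf4a had 44.5 and 43.0 CPM in Control and 37.2 and 31.9 CPM in Mettl3 cKO (log2 -0.38, SE 0.094, adjusted p = 0.00134), a decrease of 1.30-fold. Foxa1, a pioneer factor of liver genes, rose from 13.98 and 12.97 to 38.4 and 39.5 CPM (log2 1.49, SE 0.098, adjusted p = 2.8e-12). Zhx2, known in mice as a repressor of Afp, also rose (24.95 and 22.0 against 41.7 and 42.9 CPM, log2 0.81). Hhex fell from 37.8 and 32.1 to 16.4 and 17.6 CPM (log2 -1.08), and Pparg fell by 0.59. Ppara had a log2 difference of -0.25 (adjusted p = 0.292). Cebpa was called higher (48.6 and 43.3 against 53.6 and 72.0 CPM, log2 0.41, adjusted p = 0.00108), but its Mettl3 cKO libraries differed, and without Mettl3 cKO replicate 2 the call ended (log2 0.19, adjusted p = 0.107).

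The genes that the study measured by m6A immunoprecipitation with qPCR had mixed directions. Of 12 tested, 7 were higher and 2 lower. The study chose this list, so its count is no independent evidence of a direction. Apof, a plasma apolipoprotein, rose from 98.6 and 88.8 to 201 and 203 CPM (log2 1.07, SE 0.058, adjusted p = 8.66e-14). The growth factor receptor Egfr (log2 0.22), Foxm1 (log2 0.33) and the transcription co-regulator Cited2 (502 and 469 against 624 and 634 CPM, log2 0.33) rose less. Sirt1 did not differ beyond its error (log2 0.00, SE 0.092). Onecut2 was called lower at log2 -0.20, and its call ended without Control replicate 2 (adjusted p = 0.255) or Mettl3 cKO replicate 2 (0.283). That of Foxm1 ended without Control replicate 1 (0.0875) or Mettl3 cKO replicate 1 (0.0902).

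Plasma proteins split. Of 22 apolipoproteins and genes of lipoprotein secretion, 8 were higher and 12 lower, and 9 of these moved by more than 2-fold. The sharpest case was a single locus on chromosome 9 of mm10, from 46228580 to 46271919, where Apoa1, Apoc3, Apoa4 and Apoa5 lie in a row. Apoa1, the main protein of HDL, rose from 2102 and 2011 to 5200 and 4673 CPM (log2 1.22, SE 0.065, adjusted p = 5.72e-14). Apoa4 rose from 182 and 180 to 970 and 865 CPM (log2 2.30), and Apoa5, with values given above, by 4.33. Apoc3, which lies between Apoa1 and Apoa4 and slows triglyceride clearance, fell from 113 and 90.0 to 30.7 and 31.7 CPM (log2 -1.74, SE 0.093, adjusted p = 6.13e-14). So 3 neighbours rose, each more than the last, and 1 fell.

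The promoter of Apoa5, which had the largest rise among named genes of at least 10 CPM, holds none of the HNF4 letters and has a TATA box, shown in capitals, that begins 31 bases before the start. It lies on chromosome 9 from 46268358 to 46268657 on the plus strand.
Apoa5: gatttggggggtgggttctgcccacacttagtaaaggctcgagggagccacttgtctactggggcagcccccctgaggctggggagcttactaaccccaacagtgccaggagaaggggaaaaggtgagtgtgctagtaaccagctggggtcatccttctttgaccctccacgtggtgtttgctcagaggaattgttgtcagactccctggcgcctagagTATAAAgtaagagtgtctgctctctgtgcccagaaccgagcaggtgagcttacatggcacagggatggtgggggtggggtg

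Outside this locus, Apon rose from 1.30 and 1.55 to 16.9 and 17.6 CPM (log2 3.55). Apoa2, the second protein of HDL, fell from 447 and 363 to 269 and 236 CPM (log2 -0.72), and Mttp, which loads lipid onto apolipoprotein B, from 87.2 and 104 to 67.5 and 64.9 CPM (log2 -0.57). Apob itself rose slightly (2806 and 3015 against 3772 and 3633 CPM, log2 0.31). Apoe was called higher at log2 0.18 (adjusted p = 0.0209), and its call ended without Control replicate 2 (0.155) or Mettl3 cKO replicate 1 (0.193).

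A similar split was found where Alb, Afp and Afm, 3 related carrier genes, follow each other on chromosome 5 from 90460897 to 90553543. Alb had 46439 and 47844 CPM in Control and 42878 and 40418 CPM in Mettl3 cKO (log2 -0.22, SE 0.050, adjusted p = 0.00069), a decrease whose call ended with ribosomal protein scaling (log2 -0.14, adjusted p = 0.228). Afp, the middle gene, rose 15.3-fold. Afm, afamin, a carrier of vitamin E, fell from 1294 and 1337 to 568 and 519 reads (log2 -1.57, SE 0.071, adjusted p = 2.28e-15). Both loci, and the Serpina cluster, were chosen after values were seen.

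Of 33 plasma carriers and protease inhibitors, 21 were lower (63.6%, against 25.5% of all genes) and 11 higher (33.3%, against 29.6%). Rbp4, the retinol carrier, fell from 693 and 651 to 291 and 301 CPM (log2 -1.22), Ttr, transthyretin, from 786 and 722 to 393 and 349 CPM (log2 -1.06), and Azgp1, zinc-alpha-2-glycoprotein, from 149 and 149 to 45.3 and 45.2 CPM (log2 -1.76). Serpina7, the thyroxine carrier, rose from 33.0 and 35.2 to 93.5 and 94.8 CPM (log2 1.42), and Serpinf2, the plasmin inhibitor, from 137 and 127 to 292 and 291 CPM (log2 1.10). In the Serpina cluster of chromosome 12 the 5 alpha-1-antitrypsin copies were all lower but by unequal amounts: Serpina1b by log2 -0.56, Serpina1d -0.71, Serpina1a -0.98, Serpina1c -1.64 and Serpina1e -4.83. These copies are near-identical, so reads may be split among them. Serpina10, at the edge of the same cluster, rose.

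Of 36 coagulation and complement genes, 12 were higher and 14 lower (38.9%, against 25.5% of all genes). C9, the pore-forming complement protein, fell from 12.3 and 13.3 to 1.91 and 2.19 CPM (log2 -2.68), and F13b, a subunit of factor XIII, from 31.5 and 34.03 to 11.8 and 11.8 CPM (log2 -1.52). The anticoagulant Proc (92.7 and 89.1 against 184 and 184 CPM, log2 0.98) and the fibrinogen chain Fga (log2 0.95) rose. Of 22 acute phase genes 8 were higher and 12 lower. Hp, haptoglobin, which binds free haemoglobin, rose from 820 and 739 to 2946 and 3217 CPM (log2 1.94, SE 0.055, adjusted p = 2.65e-19), and Lbp rose by a log2 of 0.80. Lcn2, lipocalin 2, fell from 1724 and 1476 to 786 and 823 CPM (log2 -1.03), and the serum amyloids Saa1 and Saa2, named after values were seen, were lower (log2 -0.83 and -0.84).

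Lipid genes showed smaller and opposed changes. Of 20 genes of fatty acid synthesis, 12 were lower and 3 higher. Scd1, the desaturase that makes oleic acid, fell from 62.1 and 63.8 to 16.9 and 14.1 CPM (log2 -2.06, SE 0.085, adjusted p = 4.5e-16), Fads2 from 247 and 248 to 121 and 110 CPM (log2 -1.14) and Acly from 357 and 346 to 249 and 233 CPM (log2 -0.58). Acacb, the carboxylase whose product holds back fatty acid import into mitochondria, rose from 3.72 and 4.30 to 16.2 and 13.9 CPM (log2 1.86). In triglyceride storage and uptake, 16 of 37 were lower and 8 higher. The binding proteins Fabp1 (31.4 and 28.5 against 9.28 and 8.21 CPM, log2 -1.81) and Fabp5 (383 and 388 against 180 and 186 CPM, log2 -1.12) fell, as did the droplet coat protein Plin2 (805 and 765 against 500 and 504 CPM, log2 -0.69). The fatty acid receptor Cd36 rose from 9.20 and 10.6 to 28.7 and 27.7 CPM (log2 1.47). Cd36 is also used by macrophages and endothelial cells, whose markers were higher in the same libraries, and their part was not tested.

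Of 29 genes of cholesterol synthesis and uptake, 15 were higher and 8 lower, none by more than 2-fold. Mvd rose from 19.6 and 15.8 to 31.2 and 34.1 CPM (log2 0.84) and Dhcr7 by a log2 of 0.72. Hmgcs1 fell (log2 -0.32), so steps of 1 pathway differed. In fatty acid oxidation 12 of 40 were higher and 16 lower (40.0%, against 25.5% of all genes). Acaa1b, a peroxisomal thiolase, fell from 38.5 and 38.9 to 7.98 and 11.3 CPM (log2 -2.04), and Angptl4, a secreted inhibitor of lipoprotein lipase, from 264 and 248 to 135 and 140 CPM (log2 -0.94). Vnn1 (log2 1.51) and Pdk4, which spares glucose (log2 0.78), rose. In bile acid synthesis and transport 12 of 29 were lower and 8 higher, or 5 higher without Control replicate 1. The canalicular pump for lipophilic compounds Abcb1a rose from 39.1 and 36.6 to 120 and 118 CPM (log2 1.61), and the basolateral exporter Abcc3 from 87.9 and 85.3 to 209 and 203 CPM (log2 1.21). Abcc4, another exporter, fell from 139 and 127 to 61.4 and 63.1 CPM (log2 -1.13).

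Endoplasmic reticulum chaperones and genes of the unfolded protein response moved together more than any other list of at least 20 genes. Of 29 tested, 26 were higher (89.7%, against 29.6% of all genes) and 1 lower, with a median log2 of 0.53. Apart from the 2-fold minimum, 25 or 26 were higher under every alternative that kept all 4 libraries. The changes were modest, and 1 increase and 1 decrease exceeded 2-fold. Hspa5, the chaperone BiP and the second most abundant mRNA in Mettl3 cKO, rose from 8224 and 8845 to 15839 and 17021 CPM (log2 0.90, SE 0.051, adjusted p = 1.67e-13). Dnajb9, a BiP cochaperone, rose from 203 and 204 to 442 and 453 CPM (log2 1.10), Manf from 338 and 324 to 633 and 646 CPM (log2 0.91) and Hyou1 from 769 and 739 to 1400 and 1447 CPM (log2 0.88). Xbp1, a transcription factor of this response, rose by a log2 of 0.54. Crebrf was the exception (30.9 and 36.4 against 17.7 and 16.7 CPM, log2 -1.01).

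The integrated stress response, which shares the PERK sensor with the former, differed in count, with 17 of 32 lower and 11 higher. With ribosomal protein scaling 9 were lower. Atf5 (222 and 217 against 121 and 145 CPM, log2 -0.76), Atf3 (161 and 162 against 95.6 and 106 CPM, log2 -0.72) and the serine synthesis enzyme Phgdh (296 and 293 against 150 and 175 CPM, log2 -0.90) fell. Trib3, a target of this pathway, rose from 303 and 297 to 460 and 474 CPM (log2 0.60). Among 20 cytosolic chaperones 10 were lower and 5 higher. The inducible Hspa1a (9.38 and 10.04 against 38.6 and 35.4 CPM, log2 1.89) and Hspa1b (27.1 and 29.9 against 86.7 and 79.6 CPM, log2 1.505), near-identical copies that may share reads, and Dnajb1 (log2 1.02) rose, while Hspa4 fell (log2 -0.64).

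Of 25 genes of iron handling and the Nrf2 response, 17 were lower and 5 higher, or 3 higher without Control replicate 2. The 4 decreases with the lowest adjusted p were in genes known as targets of the antioxidant factor NRF2. Gclc, the rate-limiting enzyme of glutathione synthesis, fell from 354 and 393 to 139 and 135 CPM (log2 -1.48, SE 0.070, adjusted p = 5.55e-15), Srxn1 from 900 and 935 to 387 and 371 CPM (log2 -1.32), Osgin1 from 1076 and 996 to 443 and 414 CPM (log2 -1.31) and Txnrd1 from 688 and 715 to 392.4 and 442 CPM (log2 -0.79). Nfe2l2, which encodes NRF2, rose from 101.2 and 106 to 154 and 138 CPM (log2 0.46). Among p53 targets and apoptosis genes 18 of 36 were higher and 7 lower. Phlda3, an inhibitor of AKT, rose from 28.2 and 26.3 to 107 and 122 CPM (log2 2.03), Eda2r, a death-domain receptor, from 15.9 and 16.3 to 47.9 and 50.4 CPM (log2 1.57) and Zmat3 from 40.9 and 41.6 to 76.6 and 87.4 CPM (log2 0.95). Gadd45b fell from 86.1 and 85.4 to 20.1 and 23.7 CPM (log2 -2.01) and the survival gene Bcl2l1 from 251 and 233 to 162 and 161 CPM (log2 -0.62).

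Immune genes were called higher more often than lower. Of 54 interferon-stimulated genes, 28 were higher (51.9%, against 29.6% of all genes) and 7 lower, or 24 higher and 7 lower with the DESeq2 test. By more than 2-fold, 11 of the 54 were higher (20.4%, against 8.44% of all genes). Isg15, a ubiquitin-like modifier, rose from 37.5 and 33.7 to 168 and 178 CPM (log2 2.24, SE 0.084, adjusted p = 6.77e-17), Oasl1 from 32.7 and 32.0 to 125 and 117 CPM (log2 1.86) and Rtp4 from 15.0 and 12.5 to 46.0 and 46.4 CPM (log2 1.71). Ifih1, the sensor MDA5 of double-stranded RNA, and Gbp3 fell (log2 -0.45 and -0.67). Of 28 NF-kappaB and chemokine genes, 21 were higher (75.0%) and 4 lower. The inhibitor of apoptosis Birc3 rose from 29.0 and 30.2 to 74.8 and 71.8 CPM (log2 1.27) and the adhesion molecule Icam1 from 30.5 and 26.9 to 65.9 and 68.7 CPM (log2 1.19). Cxcl12 (145 and 143 against 81.5 and 90.2 CPM, log2 -0.79) and Lcn2 fell. In the same libraries 12 of 13 macrophage markers were higher, their summed level being 218 and 219 CPM in Control and 519 and 479 CPM in Mettl3 cKO, and their part in the immune genes was not tested.

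Genes of bile duct and progenitor cells were lower more often than higher, 13 against 5 of 24. The keratin pair that hepatocytes also use fell from very high levels: Krt8 from 5383 and 5247 to 2506 and 2482 CPM (log2 -1.13, SE 0.050, adjusted p = 1.48e-15) and Krt18 from 4423 and 4401 to 2036 and 1833 CPM (log2 -1.23). The bile duct keratins Krt19 (26.7 and 28.3 against 6.93 and 5.02 CPM, log2 -2.24) and Krt7 (27 and 28 against 2 and 6 reads, log2 -3.03) fell too. Krt23, a keratin of stressed liver, rose from 3.24 and 4.25 to 20.1 and 21.9 CPM (log2 2.44), and the integrin Itgb4 from 5.55 and 5.45 to 17.5 and 17.6 CPM (log2 1.63). Sox9 (log2 -0.14, adjusted p = 0.257) and Epcam (log2 0.26, adjusted p = 0.0517) were not called. The summed cholangiocyte markers given above were lower in the same libraries, and their part was not tested.

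Of 19 fetal liver genes 4 were higher (21.1%, against 29.6% of all genes) and 7 lower (36.8%, against 25.5%). Beside Afp, Gpc3, a heparan sulfate proteoglycan of fetal liver, rose from 40.4 and 36.6 to 81.6 and 89.6 CPM (log2 1.11). The imprinted pair H19 (557 and 561 against 241 and 207 CPM, log2 -1.36) and Igf2 (160 and 157 against 85.2 and 79.3 CPM, log2 -0.98) fell. In the growth hormone and IGF axis 7 of 16 were higher and 5 lower. Igf1, the growth factor that hepatocytes release under growth hormone, fell from 168 and 170 to 53.5 and 51.6 CPM (log2 -1.72, SE 0.067, adjusted p = 1.12e-16) and Igfbp3 from 177 and 162 to 91.4 and 93.3 CPM (log2 -0.92). Igfals and Cish, a feedback inhibitor induced by STAT5 (7.08 and 6.20 against 32.1 and 33.0 CPM, log2 2.25), rose.

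Of 34 cell cycle genes 15 were lower (44.1%, against 25.5% of all genes) and 10 higher (29.4%, against 29.6%). Beyond Ccnd1 the differences were small. Cdkn1a, the p21 inhibitor, rose from 225 and 210 to 312 and 303 CPM (log2 0.46), and Mki67 by a log2 of 0.55, while Rrm2 (log2 -0.63) and Mcm4 (log2 -0.47) fell. Of 32 immediate early and AP-1 genes 13 were higher and 8 lower, or 5 lower with Mettl3 cKO replicate 1 or 2 left out. Nr4a2 rose from 5.07 and 6.26 to 18.3 and 15.8 CPM (log2 1.55) and Jun from 272 and 258 to 466 and 443 CPM (log2 0.74). Among TGF-beta, Smad and matrix genes 14 of 34 were higher and 9 lower. Fn1, plasma fibronectin, fell from 2687 and 2710 to 1169 and 1113 CPM (log2 -1.28) and the integrin Itgb6 by 1.59. Timp3 (log2 1.24) and Col18a1, the precursor of endostatin (259 and 258 against 530 and 513 CPM, log2 0.97), rose. The stellate cell and endothelial markers were higher in the same libraries, and their part was not tested.

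Notch, Wnt, Yap and clock genes showed few large differences. Of 13 Notch genes 6 were higher and 1 lower, with the ubiquitin ligase Dtx4 (31.5 and 32.5 against 85.8 and 89.5 CPM, log2 1.41), Maml1 (log2 0.73) and Notch2 (log2 0.51) up and the ligand Jag1 down (log2 -0.48). Of 20 Wnt and pericentral genes 8 were higher and 4 lower, or 5 higher without Mettl3 cKO replicate 1. Lgr4 (log2 0.64) and Znrf3 (log2 0.53), which tune the Wnt receptor, rose, and the pericentral enzyme Gulo fell from 59.3 and 59.7 to 15.1 and 17.1 CPM (log2 -1.93). Of 20 genes on the Yap and Tead list 5 were higher and 7 lower. Amotl1 (log2 0.75) and Lats1 (log2 0.54) were up, and Fjx1 (log2 -1.23) and Crim1 (log2 -0.52) down. Of 19 clock genes 5 were higher and 6 lower. The repressor Nfil3 rose from 146 and 140 to 287 and 293 CPM (log2 0.98), and Tef (log2 -0.76) and Rora (log2 -0.73) fell. Dbp was almost silent (28 and 21 against 28 and 19 reads, adjusted p = 0.497).

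All genes of the mitochondrial genome together took 2.91% and 3.20% of the reads in Control and 2.31% and 1.90% in Mettl3 cKO. Of 7 mitochondrially encoded mRNAs tested, 6 were lower and none higher. mt-Nd4 fell from 1617 and 1799 to 931 and 695 CPM (log2 -1.11, SE 0.10, adjusted p = 9.07e-10), mt-Nd5 from 4580 and 5171 to 2610 and 2159 CPM (log2 -1.07) and mt-Co1, the most abundant of them, from 11232 and 11792 to 8688 and 7446 CPM (log2 -0.55). mt-Nd6, on the other strand of the genome, fell as well (log2 -1.07). The 2 Mettl3 cKO libraries differed more from each other here than in most genes. Ribosomal protein mRNAs stayed near 0 with 2 of 77 higher and 19 lower, none by more than 2-fold, and a median log2 of -0.11. This count rested on single libraries: 4 were lower without Control replicate 1, 30 without Control replicate 2, 8 without Mettl3 cKO replicate 1 and 32 without Mettl3 cKO replicate 2. No direction is given for the list.

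Called genes were spread over the genome. Between 50.1% (chromosome 17) and 60.2% (chromosome 4) of the tested genes of each autosome were called. Around Mettl3, which lies on chromosome 14 of mm10 from 52294841 to 52305128, 106 other genes within 5 Mb were tested, and 24 were higher and 26 lower (47.2%, against 55.1% over all genes). Of these, 6 were higher and 3 lower by more than 2-fold (8.49%, against 12.6%). Of those past 2-fold at 10 CPM or more, the largest difference was that of Ndrg2, 0.390 Mb before Mettl3 and named after values were seen (log2 -1.49, adjusted p = 5.17e-15). At the H11 locus, where the Cre was inserted, Drg1 was lower (115 and 118 against 85.1 and 100 CPM, log2 -0.37, adjusted p = 0.000215) and Eif4enif1 was not called (log2 0.15).

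Transcript features of the called genes differed little, and this was looked at after values were seen. Over 11209 protein-coding genes, using the longest transcript of each, the median transcript was 3693.5 bases in higher genes, 3239.5 in lower genes and 3426 in all. The letters GGACT, the most frequent m6A context, occurred 1.10 times per kb in higher genes, 0.986 in lower genes and 1.05 in all. In the fifth of genes with the fewest such letters per kb, 26.7% were higher and 29.6% lower, and in the fifth with the most, 34.7% were higher and 22.3% lower. With genes split in the same way by transcript length, the share of higher genes ran from 25.5% (shortest) to 36.8% (longest). Across genes Spearman's rho with the log2 difference was 0.080 for GGACT per kb, 0.071 for length, 0.13 for GC content and -0.17 for mean CPM. These describe genes of the same 4 libraries, which are not independent replicates, and the features were not separated from each other.

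The differences seen before actinomycin D were largely present also in the libraries of cells kept in it for 2 h. These share no library with the 0 h comparison, but both comparisons came from 1 fit with a shared estimate of the spread. Transcription was blocked in the 2 h cells, and whether they came from other mice or cultures is not said. The overlap is therefore not an independent repeat. At 2 h, 4680 genes (32.3%) were higher and 4139 (28.6%) lower. Of the 7977 genes called at 0 h, 6602 (82.8%) were called in the same direction at 2 h, 84 (1.05%) in the opposite one and 1291 not at all. The 6602 genes are 74.9% of those called at 2 h. Among genes past 2-fold at 0 h, 1524 of 1830 (83.3%) were called alike and none in the opposite direction. Over 9210 genes of at least 10 CPM, Pearson's r between the log2 differences at the 2 times was 0.871, a description across genes. Apoa5 had 4.33 at 0 h and 3.94 at 2 h, Afp 3.93 and 3.94, Ccnd1 -3.08 and -3.40, and Cyp2c29 -4.50 and -4.54. Some mRNAs had a larger value at 2 h: Ythdf2 1.501 and 3.36, Nfil3 0.98 and 3.07, Cited2 0.33 and 2.99 and Foxa1 1.49 and 3.30. Whether a gene differed between the times was not tested here.

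**Figure D5:**
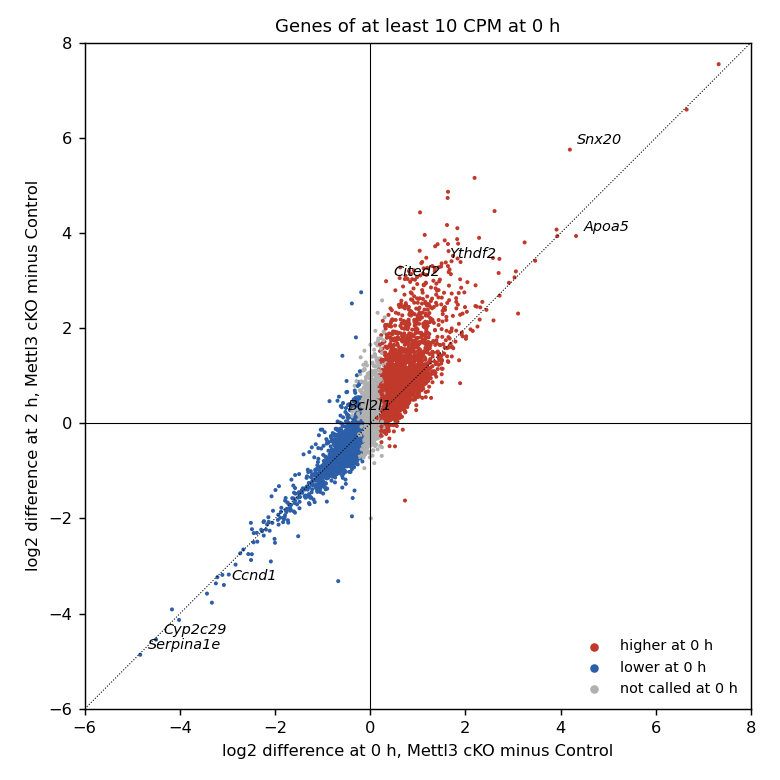
The log2 difference, Mettl3 cKO minus Control, at 0 h (x axis) and 2 h (y axis) for genes of at least 10 CPM, coloured by the call at 0 h; the dotted line marks equal values, and 2 genes, Sult2a1 and Sult2a2, lie outside the axes. Lower genes follow the line down to Serpina1e near -4.8, and many higher genes, Ythdf2 and Cited2 among them, lie above it.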

How the data were processed

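Per the labels and the study's methods, the authors used STAR 2.5.3a to place paired reads of unstranded poly(A) libraries on mm10, and featureCounts 2.0.1 to count unique alignments over Gencode exons (release: not given in the sources used here). The deposited values are raw read counts per gene, used as deposited. All 12 libraries (6 groups of 2) were fitted in edgeR 4.0.16 (R 4.3.3) with TMM scaling, filterByExpr with a count minimum of 10, a quasi-likelihood test of Mettl3 cKO against Control at 0 h and Benjamini-Hochberg adjustment over all 14488 genes. Because overlapping and antisense genes, and close copies, can share reads, their counts are uncertain. Positions are those of Gencode M21 (mm10), which matched 14457 of the tested identifiers. Promoters were taken from RefSeq (GRCm38.p6).

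The comparison, its gene lists and its markers were chosen with earlier results of these data known. Named genes were Mettl3, the m6A genes and genes the study names, the 12 largest differences each way at 10 CPM or more without predicted genes, genes off in 1 group, up to 4 members of each list with the lowest adjusted p and up to 2 called against its majority, the 10 most abundant genes and markers a result turns on. Replicates of a group differed by more than sampling noise (chi-square per gene 2.14 to 9.16), so none was a copy. Counts for 0 h were also simulated (13910 genes) with only 200 genes changed, 100 at each size. There, 92% of changes of 1 and 70% of changes of 0.5 on the log2 scale were recovered, and 12 unchanged genes were called. In the data 7977 genes were called, so these rates do not give the error of the real calls. Alternatives were other scalings, filters and library sets, DESeq2 1.42.0, a 2-fold minimum, a block for replicate number and leaving out each 0 h library. Some genes that the rule names are left out of the text.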

Additional observations from a re-analysis of the deposited data

Results flagged for a closer look

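With 2 libraries a group, outlying libraries were not looked for. Among the named genes, 2 were called in opposite directions at 0 and 2 h. The survival gene Bcl2l1 had a log2 difference of -0.62 at 0 h and 0.16 at 2 h. Rbm15b, a subunit of the m6A writer, had -0.42 at 0 h and 0.28 at 2 h. For both, the difference between the times was not tested.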

How the results depend on the processing

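The counts of genes higher (4286) and lower (3691) kept within 1.5 times under every alternative except the 2-fold minimum, which left 1223 and 607, and 1524 in place of 6602 for calls shared with 2 h. Leaving out 1 library gave 3651 to 3819 higher, 3043 to 3176 lower and 5813 to 5926 shared, with the lone library assumed to vary like the other groups. DESeq2 gave 3413 and 3526. Scaling moved the split: 53.7% of calls were higher with TMM, 49.5% with DESeq2 size factors, 58.7% with total counts and 64.5% with ribosomal protein scaling (4548 higher, 2505 lower), where the median of all genes moved to 0.10. With only the 0 h libraries 4001 were higher and 3921 lower. Same-numbered libraries did not deviate together (r from -0.0997 to 0.0345), so the numbers do not pair them; a replicate block gave 4200 higher, 3589 lower and 6454 shared. Of 286 named genes, 259 kept their call under every alternative other than the 2-fold minimum, which was left out of this count. None reversed. Depth limits genes of few reads, such as Cyp8b1.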
